A study of Mus musculus with 4 samples.

Results

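The account concerns 1 gene, G6pd2, read by 1 of the 60900 probes kept from an Arraystar mouse array for long noncoding RNAs and mRNAs. Its probe, CUST_15_PI419532418, carries the RefSeq mRNA accession of G6pd2 and was printed in 20 spots on every array. It is 1 of 15 probes whose accession names a gene. The gene was chosen by its measured values, because it was higher at day 4 by nearly equal amounts in both cell lines. Those differences are therefore given as a description, with no test.

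RNA came from 2 mouse lines, each sampled at day 0 and at day 4 after adipocyte differentiation was induced. C3H10T1/2 is a fibroblast-like line of multipotent mesenchymal cells from mouse embryos, and 3T3-L1 is a preadipocyte line derived from mouse 3T3 fibroblasts. The 4 groups were C3H10T1/2 at day 0, C3H10T1/2 at day 4, 3T3-L1 at day 0 and 3T3-L1 at day 4, with 1 sample on 1 array each. The inducing agents are not given in the sources used here, and no gene modification is named in the labels. None of 31 marker genes of adipocytes, their precursors and other cell types had a named probe, so the labelled cell types could not be checked on these arrays.

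Glucose-6-phosphate dehydrogenase catalyses the entry step of the pentose phosphate pathway. It oxidises glucose-6-phosphate and reduces NADP+ to NADPH, the electron donor that fatty acid synthase consumes and that glutathione reductase uses to keep glutathione reduced. Cells that turn to making fat, such as maturing adipocytes, are known for a high demand for NADPH. The mouse has an X-linked gene for the enzyme, G6pdx, which is active in most tissues, and an autosomal copy without introns, G6pd2, which is known mainly from developing sperm cells. In the RefSeq table of the assembly GRCm38.p6, G6pd2 spans 1635 bases and G6pdx 19398 bases.

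Both copies share a stretch near their annotated transcript starts, which is shown here because the array cannot be assumed to tell them apart. The lines below give 30 bases near the annotated start of each transcript from RefSeq (GRCm38.p6), 5′ to 3′, with the base that differs in capitals. The first bases printed for G6pd2 lie before its annotated start.
G6pd2: gatctgtgaacgtgtttggcagTggcaact
G6pdx: gatctgtgaacgtgtttggcagCggcaact
Counted from 1 at the 5′ end of the printed stretch, the difference from G6pd2 to G6pdx is T23C. The shared stretch is 35 bases long within the RefSeq windows used, with 34 identical bases (97.1%). It begins 10 bases before the annotated start of G6pd2 and at base 16 after the annotated start of G6pdx. The sequence of the probe itself was not analysed here, so whether it reads G6pd2, G6pdx or both was not tested, and every value below is the signal of this probe.

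The 250 bases before each annotated start are unlike, and they are shown for that reason. The end of the G6pd2 window already belongs to the shared stretch above, which in G6pdx lies after the start. In the window of G6pd2 (chr5:61808593-61808842, plus strand, GRCm38.p6) and that of G6pdx (chrX:74428881-74429130, minus strand), capitals mark the GC box.
G6pd2: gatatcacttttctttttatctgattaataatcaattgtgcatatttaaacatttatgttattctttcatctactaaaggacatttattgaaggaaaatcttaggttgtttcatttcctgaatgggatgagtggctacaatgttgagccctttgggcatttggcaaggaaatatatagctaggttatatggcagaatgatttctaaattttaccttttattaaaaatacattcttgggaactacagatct
G6pdx: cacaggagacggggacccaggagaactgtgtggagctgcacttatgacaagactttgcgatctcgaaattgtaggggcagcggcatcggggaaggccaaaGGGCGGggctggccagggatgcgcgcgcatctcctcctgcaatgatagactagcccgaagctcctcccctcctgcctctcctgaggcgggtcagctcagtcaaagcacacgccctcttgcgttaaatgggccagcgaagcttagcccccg
The longest run that these windows share is 6 bases. The G6pd2 window has 30% G and C, below which lie 1.47% of the 32851 windows in the table, and the G6pdx window has 61.2%, below which lie 74.8%. The GC box GGGCGG, searched on both strands, occurs at 1 place before G6pdx and at none before G6pd2, and it is present in 32.7% of all windows. The E-box CANNTG occurs at 2 places before G6pd2 and at none before G6pdx, and is present in 66.2% of windows. Neither window holds TATAAA or CCAAT, which are in 12.4% and 33.8% of windows. These are matches of letters only.

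The signal of the G6pd2 probe was well above background in all 20 spots on each of the 4 arrays, and no spot was saturated. In C3H10T1/2 at day 0 the processed intensity ran from 639.7 to 732.4 over the 20 spots, with a median of 683. In C3H10T1/2 at day 4 it ran from 1993.5 to 2256.7, with a median of 2091. The lowest spot at day 4 was thus above the highest spot at day 0 in this line.

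In 3T3-L1 at day 0 the intensity ran from 720.8 to 813.7, with a median of 759. In 3T3-L1 at day 4 it ran from 1703.9 to 1966.3, with a median of 1866. Day 0 and day 4 spots did not overlap in 3T3-L1 either. At day 0 the coefficient of variation over spots was 3.24% in C3H10T1/2 and 3.80% in 3T3-L1, and at day 4 it was 3.70% and 4.28%. The extraction software's own error estimate was larger, with a median of 10% of the intensity on each array. Before processing, the median spot signal at day 0 was 730 in C3H10T1/2 and 820 in 3T3-L1, over local backgrounds with medians of 28.5 and 27. At day 4 it was 2153 and 1932, over backgrounds of 29 and 27. The background around the probe was thus nearly the same on all arrays.

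To compare arrays, the 75th percentile of each array was taken off the log2 intensity. On this scale the G6pd2 level was 1.08 ± 0.05 (SD over 20 spots) in C3H10T1/2 at day 0 and 2.53 ± 0.05 (SD over 18 spots) at day 4, where 2 spots marked as outliers were left out. It was 0.98 ± 0.05 in 3T3-L1 at day 0 and 2.38 ± 0.06 at day 4 (SD over 20 spots each). The order from low to high was 3T3-L1 at day 0, C3H10T1/2 at day 0, 3T3-L1 at day 4 and C3H10T1/2 at day 4. Spots of an array share their RNA, labelling and hybridisation, so these SDs are technical and give no spread between cultures.

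**Figure D1:**
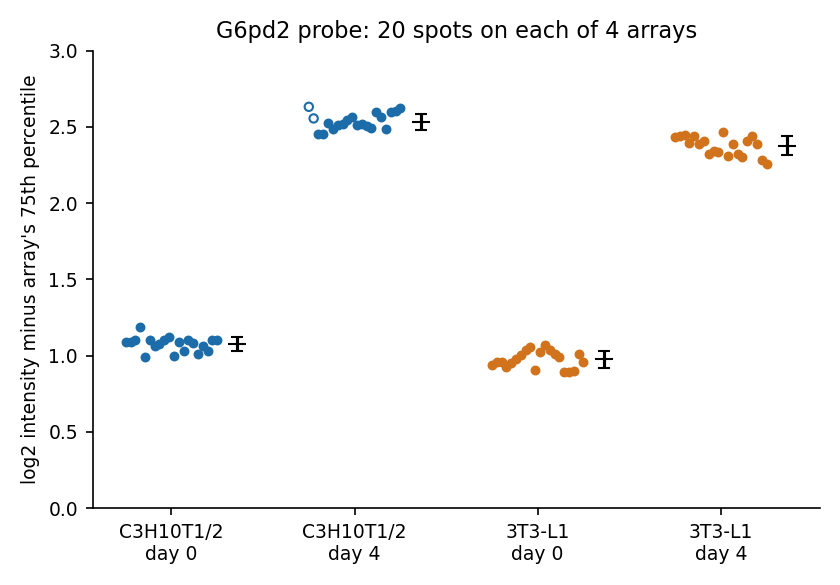
Each point is 1 of the 20 spots of the G6pd2 probe on an array, placed by log2 intensity minus the array's 75th percentile (y axis) in the 4 groups (x axis), in the order of grid rows. Open points are the 2 spots marked as outliers, and black bars show the mean and SD of the others; day 4 means of 2.53 and 2.38 lie above day 0 means of 1.08 and 0.98, with no overlap.

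The comparison of days asked how the G6pd2 signal differed after 4 days of differentiation. In C3H10T1/2 it was 2.74-fold higher at day 4, a log2 difference of 1.45 ± 0.08 (SD over 18 spot positions). Position by position, the difference ran from 1.26 to 1.57 on the log2 scale, and all 18 positions were at least 2-fold higher at day 4. In 3T3-L1 the signal was 2.64-fold higher, a log2 difference of 1.40 ± 0.10 (SD over 20 spot positions). Here it ran from 1.24 to 1.55, and all 20 positions were at least 2-fold higher. With 1 array per group these differences have no replicate check.

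Spots from different parts of the array gave like differences. In C3H10T1/2 the mean log2 difference was 1.41 ± 0.08 (SD) over 7 spots in the upper part of the grid and 1.48 ± 0.06 over 11 spots in the lower part. In 3T3-L1 it was 1.42 ± 0.08 over 9 and 1.38 ± 0.11 over 11 spots. The unprocessed signals, as spot median minus local background median, gave nearly the same log2 differences as the processed intensities before any scaling, 1.60 against 1.63 in C3H10T1/2 and 1.25 against 1.28 in 3T3-L1.

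A 2-fold difference was not rare among these arrays. In C3H10T1/2, 3262 of 38303 probes (8.52%) with signal above background on either array were at least 2-fold higher at day 4, and in 3T3-L1 3399 of 40237 (8.45%). In both lines together it was 1551 of 36949 (4.20%), and G6pd2 is 1 of these by the way it was chosen. Restricted to the 32829 probes with signal above background on every array, 4.01% had a larger log2 difference than G6pd2 in C3H10T1/2 and 4.29% in 3T3-L1, and 694 (2.11%) exceeded it in both. The 95th percentiles of the log2 difference over these probes were 1.29 in C3H10T1/2 and 1.28 in 3T3-L1, below the G6pd2 values of 1.45 and 1.40.

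**Figure D2:**
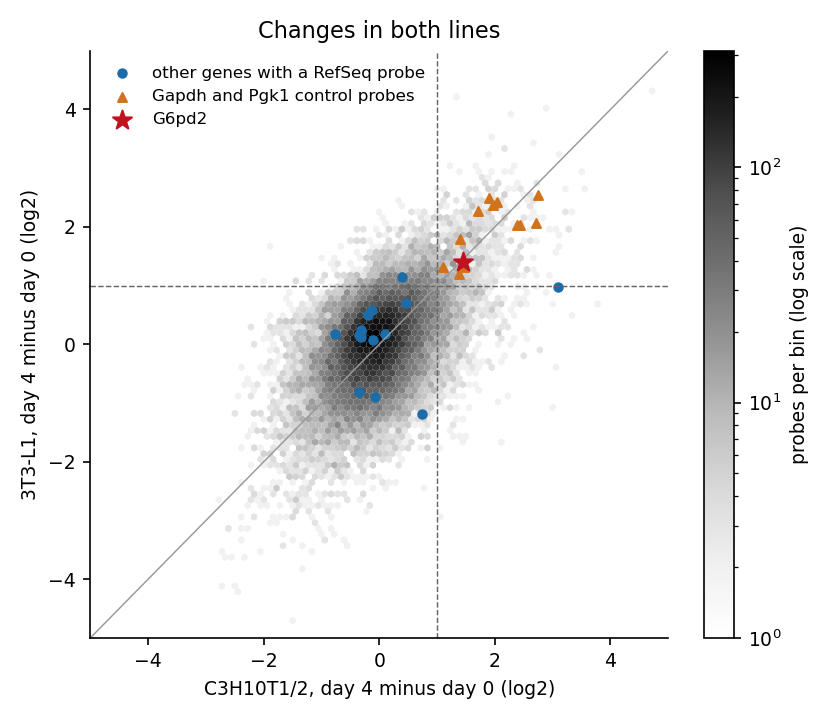
Log2 difference between day 4 and day 0 in C3H10T1/2 (x axis) and in 3T3-L1 (y axis); grey shade counts the 32829 probes above background on all arrays, of which 68 lie outside the axes, and dashed lines mark 2-fold. The star marks G6pd2 at 1.45 and 1.40, beside the line of equal differences, with the 12 Gapdh and Pgk1 control probes (triangles) in the same quadrant and none of the 14 other RefSeq genes (circles) at 2-fold or more in both lines on this scale.

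The comparison of lines gave small differences. At day 0 the G6pd2 signal was lower in 3T3-L1 than in C3H10T1/2 by 0.10 ± 0.07 on the log2 scale (-0.10, SD over 20 spot positions), with 18 of 20 positions lower and 2 higher. At day 4 it was lower by 0.16 ± 0.10 (-0.16, SD over 18 positions), with 18 of 18 positions lower. The corresponding folds, 1.07 at day 0 and 1.11 at day 4, are small beside the differences between days. The sign at day 0 turned with the scaling, to 0.17 without scaling between arrays and 0.08 when scaled to reference genes, so neither line can be placed above the other at day 0. At day 4 the value stayed below 0 under every scaling of whole arrays, from -0.19 to -0.07. A single gene as the scale could turn it. Actb (-0.22), B2m (-0.31) and Gusb (-0.67) were lower in 3T3-L1 at day 4 by more than G6pd2 was. The other genes of the reference mean were not. The lines can thus not be placed in order at day 4 either.

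The difference in 3T3-L1 minus that in C3H10T1/2 was -0.05 ± 0.13 (SD over 18 spot positions), with 14 positions below 0 and 4 above. This is the value for which the gene was chosen. The median size of this gap over the 32829 probes was 0.43, and 6.59% of them had a gap no larger than that of G6pd2. Among the 1274 of them that were at least 2-fold higher in both lines, 91 (7.14%) had a gap that small.

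How equal the lines appear depends on the scale used. The G6pd2 signal was higher at day 4 in both lines under all 8 scalings of whole arrays, though not against every single probe (below). Under 8 scalings, the log2 difference of G6pd2 in C3H10T1/2 ran from 1.28 to 1.63 (2.43-fold to 3.10-fold). In 3T3-L1 it ran from 1.26 to 1.51 (2.39-fold to 2.84-fold). The authors' deposited table gave log2 levels for G6pd2 of 9.56 at day 0 and 10.94 at day 4 in C3H10T1/2. For 3T3-L1 it gave 9.50 and 10.83, and its log2 differences between days were 1.38 and 1.33. Scaled to the array median, 3T3-L1 had the larger difference, with 1.51 against 1.5. Without scaling, C3H10T1/2 had the larger one, with 1.63 against 1.28, a gap of -0.36.

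**Figure D3:**
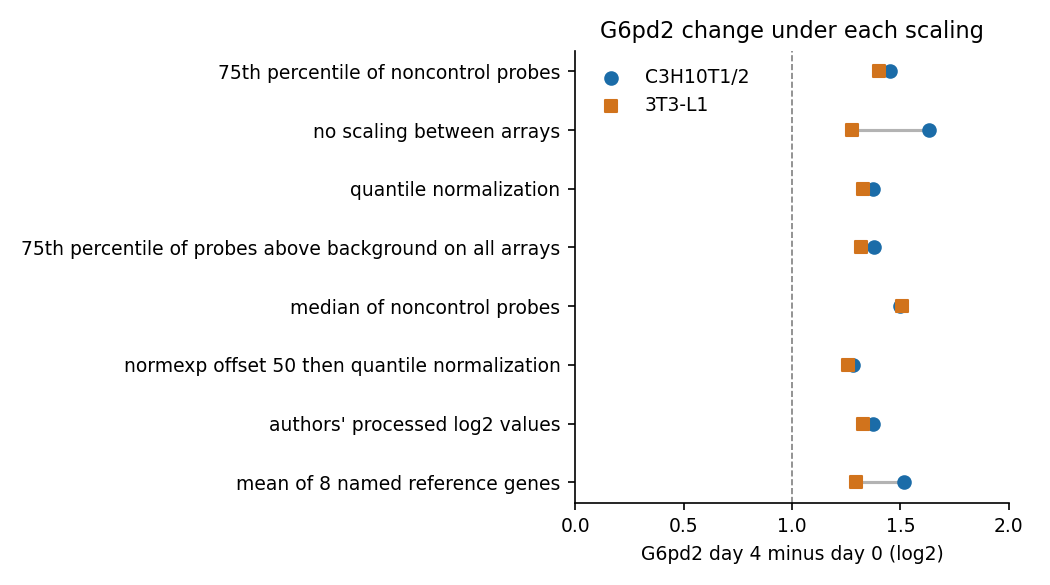
Log2 difference of the G6pd2 signal between day 4 and day 0 (x axis) in C3H10T1/2 (circles) and 3T3-L1 (squares) under 8 ways to scale the arrays (y axis). All values lie between 1.26 and 1.63, to the right of the dashed line at 2-fold, and the lines are farthest apart without scaling.

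The labels name no spike-in. Of 12 probes named for ERCC spike-in RNAs, 2 were above background on all arrays and 10 on none. The unscaled log2 difference between days of ERCC-00062_278 was 0.51 in C3H10T1/2 and 0.50 in 3T3-L1. That of ERCC-00097_63 was -0.33 and 0.033, so the pair disagreed in C3H10T1/2, and they were not used as a scale. The median log2 difference of the 32829 probes moved with the scaling, in C3H10T1/2 from -0.12 to 0.13 and in 3T3-L1 from -0.05 to 0.18. Relative to that median, the G6pd2 difference was 1.32 to 1.5 in C3H10T1/2. In 3T3-L1 it was 1.22 to 1.33. Taking 1 value off each array cannot change a difference relative to that median. Only quantile normalization, normexp and the authors' deposited values could move it, so the narrow range is partly by construction. More RNA per cell and more cells carrying it cannot be told apart in such bulk samples.

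A scale often used in adipocyte studies is a reference gene on the same sample, so the G6pd2 difference was set against that of each of 8 such genes with a probe here. In C3H10T1/2 G6pd2 exceeded them by 1.0 (2.0-fold, against the RefSeq probe of Gapdh) to 1.81 (3.51-fold, against Ppia, a peptidyl-prolyl isomerase), with a median of 1.65. In 3T3-L1 the range was wider, from 0.25 (1.19-fold, against Hprt, an enzyme of purine salvage) to 2.29 (4.90-fold, against Gusb, a lysosomal enzyme), with a median of 1.23. Against the control probes the sign could turn. Against the 6 control probes of Gapdh G6pd2 stood at -0.59 to 0.36 in C3H10T1/2, below 4 of them. In 3T3-L1 it stood at -1.09 to 0.076, below 5 of them. Against the 6 of Pgk1 it stood at -1.29 to 0.079 in C3H10T1/2 and at -1.13 to 0.21 in 3T3-L1, below 5 and 4 of them. The choice of reference gene thus moved the 3T3-L1 value far more than any of the array-wide scalings did.

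With Hprt as the scale, the near-equality of the lines was gone, at 1.07 in C3H10T1/2 and 0.25 in 3T3-L1. With Rpl13a, a ribosomal protein gene, the values were 1.35 and 1.22, the closest pair among the 8. Against Actb, the cytoskeletal actin, they were 1.77 and 1.27, and against Tbp, a general transcription factor, 1.78 and 1.16. B2m, the invariant chain of class I antigen-presenting molecules, gave 1.81 and 2.21, with 3T3-L1 as the higher line. In all, 6 of the 8 genes left C3H10T1/2 with the larger G6pd2 value and 2 left 3T3-L1 with it. Of the other listed reference genes, the chaperone gene Hsp90ab1 gave 1.57 and 0.81, the alpha-tubulin gene Tuba1b 1.57 and 1.33, and Nono, for an RNA-binding protein of paraspeckles, 2.22 and 1.22. Tfrc, the transferrin receptor, gave -1.64 in C3H10T1/2, where G6pd2 did not exceed it, and 0.43 in 3T3-L1. Against the mean of the 8 genes, G6pd2 was higher by 1.52 in C3H10T1/2 and 1.29 in 3T3-L1.

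**Figure D4:**
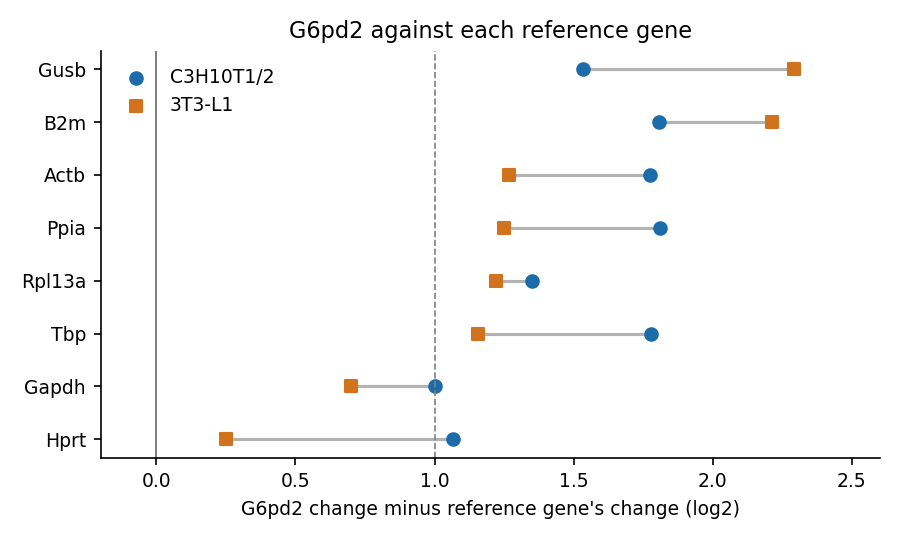
Log2 difference of G6pd2 between day 4 and day 0 minus that of each reference gene on the same arrays (x axis), for C3H10T1/2 (circles) and 3T3-L1 (squares), with 0 as a solid and 2-fold as a dashed line. The values in C3H10T1/2 lie between 1.0 and 1.81, while those in 3T3-L1 spread from 0.25 with Hprt to 2.29 with Gusb.

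Of 15 genes listed for the pentose phosphate pathway, G6pd2 was the only one with a named probe, so the pathway's later enzymes could not be followed. None of 5 other sources of cytosolic NADPH, 8 enzymes that use it to make lipid and 7 genes of redox defence had one. The neighbouring pathway of glycolysis, which draws on the same glucose-6-phosphate, had 3 of 14 listed genes with a name, Gapdh, Pgk1 and Ldhal6b.

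The 4 named probes nearest to G6pd2 in pattern were control probes for Pgk1 and Gapdh. Likeness was taken as the Euclidean distance between log2 values over the 4 arrays after each probe's own mean was removed, so it weighs days and lines together. The nearest was the mouse control probe marked Pgk1 3, for the kinase that forms ATP in glycolysis, at a distance of 0.31. Its log2 differences between days were 1.37 ± 0.06 in C3H10T1/2 and 1.19 ± 0.07 in 3T3-L1 (SD over up to 10 spots). The human probe marked Pgk1 3 followed at 0.33, with 1.47 ± 0.16 and 1.31 ± 0.11. The mouse probe marked Gapdh 3, for the dehydrogenase upstream of Pgk1, lay at 0.39, with 1.09 ± 0.08 and 1.32 ± 0.08. The human probe marked Gapdh 3 lay at 0.57, with 1.39 ± 0.05 and 1.80 ± 0.06. The other 8 control probes of these genes lay farther, at 0.88 to 1.33, behind Hprt at 0.79. Ldhal6b, for a lactate dehydrogenase A-like protein and also on the glycolysis list, was above background on 2 of 4 arrays, the day 4 array of C3H10T1/2 and the day 0 array of 3T3-L1, and lay at 1.93, with measured log2 differences of opposite sign, 0.74 and -1.18. Likeness over 4 arrays is a description with 4 points that share their slide.

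All 12 control probes named for Gapdh or Pgk1 were at least 2-fold higher at day 4 in both lines, against 4.20% of all probes tested. Their median log2 differences were 1.93 in C3H10T1/2 and 2.05 in 3T3-L1. Under the other scalings 10 to 12 of them were 2-fold higher, and the lowest value of any was 0.96. They are repeated readings of Gapdh and Pgk1 only, named for mouse, human or rat. The mouse Gapdh probe marked 5 had 1.71 and 2.27, against 1.09 and 1.32 for that marked 3. Mouse Pgk1 and both human pairs had the same order, and the rat pairs did not throughout. The cause was not tested, nor was whether RNA quality differed between the days, which would bear on every difference between days given here. The RefSeq probe of Gapdh had 0.45 ± 0.05 and 0.70 ± 0.08, at a distance of 0.87, so probes named for Gapdh differed beyond their SD over spots. G6pd2 has a single probe and thus no check of this kind.

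Among the other 14 genes with a RefSeq probe, 4 were higher in both lines, 2 lower in both and 8 of opposite sign. None was 2-fold higher in both, a share that was 4.20% over all probes tested, so few would be looked for among 14. Most of the 14 are on the list of reference genes. These signs turned with the scaling for several of them, which left 3 to 5 higher in both and 1 to 5 lower in both, and Tfrc was 2-fold higher in both with the array median. Their median log2 differences were -0.12 in C3H10T1/2 and 0.18 in 3T3-L1. None of the 14 had a gap between lines as small as that of G6pd2, whereas 6 did without scaling and 3 when scaled to the reference genes. G6pd2 was chosen for this gap, and on the main scale only 6.59% of the 32829 probes had one as small. Few would thus be looked for among 14, and nothing is concluded from this count. The farthest in pattern were B2m, at a distance of 2.02 with log2 differences of -0.35 ± 0.07 and -0.81 ± 0.06, and Gusb, at 1.96 with -0.08 ± 0.06 and -0.89 ± 0.04, of which the value in C3H10T1/2 turned to 0.098 without scaling. Tfrc also had higher signals at day 4 in both lines, but unevenly, with 3.09 ± 0.08 in C3H10T1/2 and 0.97 ± 0.09 in 3T3-L1.

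**Figure D5:**
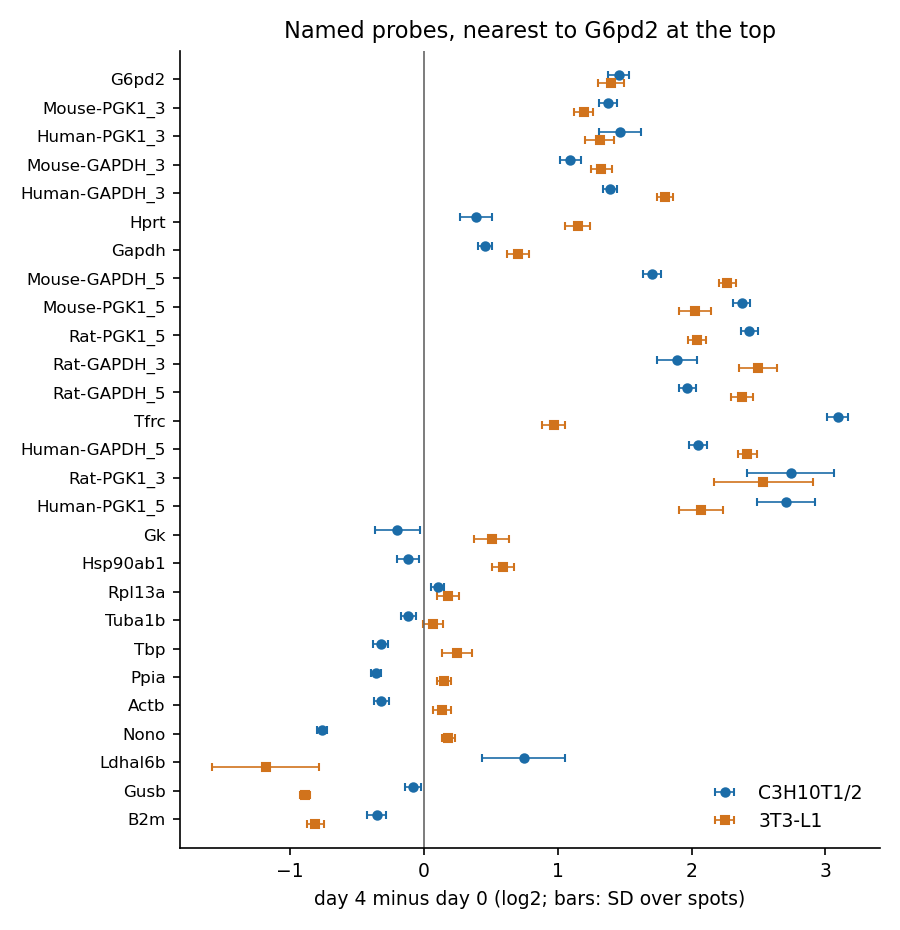
Log2 difference between day 4 and day 0 (x axis) of every named probe, ordered from the nearest to the farthest from G6pd2 in pattern (y axis), for C3H10T1/2 (circles) and 3T3-L1 (squares) with the SD over spots as bars. The Pgk1 and Gapdh control probes marked 3 of mouse and human stand next to G6pd2, and Gusb and B2m, with values below 0 in both lines on this scale, stand last.

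Probes without a gene name came closer still. Of 32828 other probes above background on all arrays, 65 (0.198%) lay within a distance of 0.25 of G6pd2 and 114 (0.347%) lay nearer than the nearest named probe. The nearest was ASMM10P045575, at 0.05, with log2 differences between days of 1.49 in C3H10T1/2 and 1.46 in 3T3-L1. ASMM10P018502 lay at 0.07, with 1.46 and 1.39, and ASMM10P003861 at 0.08, with 1.54 and 1.34. These probes were printed in single spots and have no spot SD, and the files pair them with no gene.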

How the data were processed

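The authors extracted spots with Agilent Feature Extraction 11.0.1.1, per the file headers, giving an intensity per spot after background subtraction and spatial detrending, unscaled between arrays. The authors' deposited log2 table has no stated method. Each column followed its own array (r from 0.999 to 1.000, medians near 5.94) without centring, in the same direction, and served as an alternative. The G6pd2 log2 differences in it, 1.38 in C3H10T1/2 and 1.33 in 3T3-L1, nearly repeated the 1.37 and 1.33 of quantile normalization. It thus adds little to that alternative.

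Here, log2 intensities were averaged over the spots of a probe without outlier spots, and the 75th percentile of noncontrol probes was subtracted. Negative controls, 15 single spots that were not uniform and most other control spots were left out. The control probes named for Gapdh, Pgk1 and ERCC RNAs were kept but not used for scaling. A probe counted as above background if over 0.5 of its spots were. Where 1 array of a pair was dim, the fold was a bound against the lowest signal above background. No test was run, with 1 array per group on a gene chosen by its values. G6pd2, the lists and the alternatives were chosen with earlier results of these data known. By rule, the 4 nearest and 2 farthest named probes, the 3 nearest others and the listed reference genes are named; 8 of these set a scale. The 4 arrays shared 1 slide. Limma 3.58.1 (R 4.3.3) did normexp (offset 50, on medians) and quantile normalization. Fold counts and distances were tested on simulated data. Accessions were matched to RefSeq genes without versions (15 of 15). The number of arrays limits the precision.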

Additional observations from a re-analysis of the deposited data

How the results depend on the processing

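Of 45 G6pd2 values under alternatives, 33 moved by less than their SD over spots, and none of the day 4 minus day 0 values turned. In C3H10T1/2 the log2 difference between days was 1.63 without scaling between arrays, 1.37 with quantile normalization, 1.28 with normexp and 1.38 in the authors' deposited table. In 3T3-L1 it was 1.28 without scaling, 1.51 with the array median, 1.26 with normexp and 1.29 with the reference genes. The line difference at day 0 became 0.17 without scaling and 0.085 with the reference genes, and the gap between the lines' differences became -0.36 and -0.22. The cause was not tested. Medians over spots, or all 20 spots kept, moved no G6pd2 value by more than its SD.

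Of 27 counts of probes 2-fold higher at day 4, 18 stayed within 1.5 times. Normexp gave 2067 in C3H10T1/2, 1978 in 3T3-L1 and 995 in both. By construction, 1.5-fold gave 6311, 7559 and 3187, and 4-fold 976, 881 and 392. Of the 4 named probes nearest to G6pd2, 4 were among the nearest 4 under each other scaling run on this, except normexp with 3. For the array median and the 75th percentile of probes above background this was fixed in advance. Taking 1 value off each array leaves these distances unchanged, so only the other scalings could differ. Spot SDs cover these arrays only, and no spread between cultures is known.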
